A study of Mus musculus with 9 samples.

Results

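The nuclear pore genes described here are the autosomal entries whose names mark them as a nucleoporin: Nup followed by a number, Nupl1 or Nupl2, Ndc1, Pom121, Tpr, Seh1l, Sec13, Aaas, Rae1 or Ranbp2. The rule found 30 of the 28051 entries, of which 26808 lie on chromosomes 1 to 19. These 30 entries are 29 genes on 13 chromosomes, because Nupl1 is listed as 2 overlapping entries with nearly the same counts (1048 and 1045 UMIs over all samples) and was counted once, by the first. The rule used names only and no measured value.

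The transcripts were counted in oocytes in the growth phase from mouse females of 3 genotypes, all 18 dpp and labelled C57BL/6. XY females carry the Y chromosome of B6.YTIR males, which often fails to bring about testis formation on this background, and the XX females were their littermates. XO females had fathers carrying the X-linked Paf mutation, which came from C3H/HeSnJ and was backcrossed, so XO oocytes are not littermates of the others and genotype and breeding cannot be told apart. Each genotype had 3 samples, and each sample was a pool of 30 oocytes, 10 with a diameter of 50 to 55 μm and 20 of 55 to 60 μm, freed from dissociated ovaries and lysed with ERCC spike-ins. Smart-seq3 libraries gave 5′ UMI counts, in which a molecule counts once whatever its length, so levels were compared between genes without dividing by length. The samples are called XX1 to XX3, XO1 to XO3 and XY1 to XY3. A sample held 2130145 to 3157338 UMIs on genes, and 1 UMI equalled 0.302 to 0.565 normalized CPM, the unit used below (UMI counts scaled by the authors to library size and spike-ins). P-values measure the spread between pools. In such pools, fewer oocytes with a transcript and less of it per oocyte cannot be told apart.

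The nuclear pore is the gate in the nuclear envelope through which mRNA leaves the nucleus and proteins enter it. An outer ring of Y-shaped complexes and an inner ring form its scaffold, a few membrane proteins anchor it, proteins rich in FG repeats fill the central channel, and filaments and a basket extend on the cytoplasmic and nuclear sides. A growing oocyte has a large nucleus, the germinal vesicle, and stores mRNA and protein in its cytoplasm for the meiotic divisions and the early embryo. By place, the 29 genes were 8 of the outer ring, 5 of the inner ring, 3 of the central channel, 4 of the pore membrane, 6 of the cytoplasmic face and 3 of the nuclear basket.

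The sequences before the start sites of 4 genes are shown because the text below returns to these genes, though no comparison used the sequences. Sec13, Nup160 and Nupl1 passed the threshold in a comparison, and Tpr was at the opposite end from Sec13 within the XO samples. They are RefSeq sequences of GRCm38.p6, the build of the deposited coordinates, read 5′ to 3′ on the strand of the gene, with at most 30 bases inside the deposited gene. Capitals mark matches to the motifs searched on both strands, which were CCGGAAG (bound by ETS factors), GGGCGG (bound by SP1), CCAAT (the CCAAT box), CACGTG (the E-box), TGACGTCA (the cAMP response element, CRE) and TATAAA (the TATA box). Sec13 is at chr6:113740714-113740931 (minus strand), Nup160 at chr2:90676965-90677214 (plus), Nupl1 at chr14:60251480-60251729 (minus) and Tpr at chr1:150392588-150392837 (plus).
Sec13: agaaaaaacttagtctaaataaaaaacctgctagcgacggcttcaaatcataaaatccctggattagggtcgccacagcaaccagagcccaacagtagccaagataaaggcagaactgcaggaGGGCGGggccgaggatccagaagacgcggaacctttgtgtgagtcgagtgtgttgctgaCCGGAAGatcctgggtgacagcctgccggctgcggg
Nup160: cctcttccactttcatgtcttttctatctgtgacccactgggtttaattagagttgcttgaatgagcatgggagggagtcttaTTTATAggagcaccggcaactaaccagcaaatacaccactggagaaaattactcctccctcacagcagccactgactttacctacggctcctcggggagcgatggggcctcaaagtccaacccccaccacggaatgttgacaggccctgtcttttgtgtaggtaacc
Nupl1: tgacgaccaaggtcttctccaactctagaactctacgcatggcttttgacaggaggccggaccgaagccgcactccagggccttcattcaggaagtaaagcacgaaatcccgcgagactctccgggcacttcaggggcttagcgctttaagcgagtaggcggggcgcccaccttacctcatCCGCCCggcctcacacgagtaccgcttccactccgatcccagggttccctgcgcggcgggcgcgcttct
Tpr: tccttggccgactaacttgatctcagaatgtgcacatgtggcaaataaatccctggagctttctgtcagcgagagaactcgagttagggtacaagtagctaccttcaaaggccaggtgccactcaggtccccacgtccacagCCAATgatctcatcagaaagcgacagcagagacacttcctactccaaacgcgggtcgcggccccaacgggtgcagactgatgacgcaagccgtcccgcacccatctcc

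A window of 250 bases before the RefSeq start was found for 25 of the 29 genes, and Nup35, Nup43, Nup85 and Seh1l had none. In 22 of the windows a stretch just after the start matched a Gencode transcript of the gene. In those of Nupl1, Nup205 and Ranbp2 it did not, so the start used for these genes is less certain. The SP1 letters stood in 15 of the 25 windows (60.0%) and in 32.7% of all 32851 windows of this length. The ETS letters stood in 6 of 25 (24.0%) against 6.91% of all windows, and Sec13 held 2 matches, of which the one 68 bases before the start is in the stretch shown. The CCAAT box stood in 10 windows (40.0% against 33.8%), the E-box in 4 (16.0% against 6.02%), CRE in 2 (8% against 1.55%) and the TATA box in 2 (8% against 12.4%). The median ratio of observed to expected CpG was 0.893 in these windows and 0.373 in all of them, with the lowest value in Nup160 (0.325), which also held one of the TATA box matches. These matches describe the letters of the windows and are not known sites of a factor.

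All 29 genes had UMIs in every sample. Their levels ran from a mean of 288 normalized CPM over the 9 samples for Nup37 to 2.53 for Nupl2. Together they made up 0.178, 0.176 and 0.216% of gene UMIs in XX oocytes, 0.146, 0.247 and 0.254% in XO oocytes and 0.160, 0.204 and 0.238% in XY oocytes. The lowest shares were in XO1 and XY1, and the shares of the genotypes overlapped. Summed normalized CPM was 1580.4, 1507 and 1730.5 in XX, 1748, 2915 and 3613 in XO, and 1589, 1765 and 2266 in XY. All 3 XO sums were above all XX sums, XO1 by a small margin. The same held for the sum over all genes, which was 802037 to 888533 in XX and 1181293 to 1422594 in XO. That sum is set by the spike-in factor of each library, 1.13 to 1.25 in XX and 0.703 to 0.847 in XO. It is therefore no separate measurement, and the order of the summed levels depends on this scaling.

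**Figure D1:**
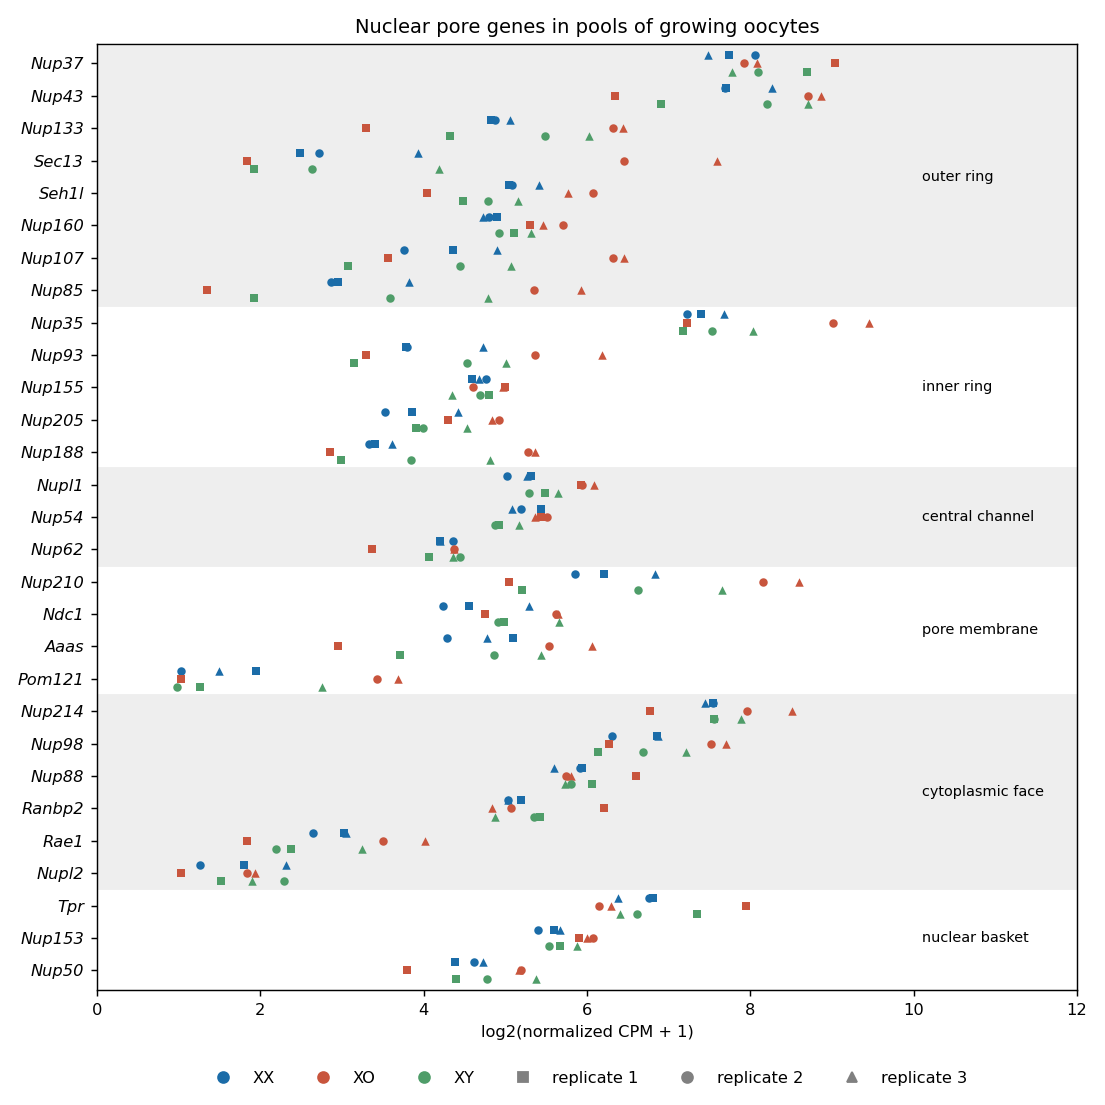
Level of each of the 29 genes in each of the 9 pools, as log2(normalized CPM + 1), grouped by place in the pore (shaded bands) and coloured by genotype, with the marker shape giving the replicate number. XO2 and XO3 lay to the right and XO1 to the left in most genes, while Tpr, Nup37 and Ranbp2 had their highest value in XO1.

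The outer ring held the most abundant gene, Nup37, a small WD-repeat subunit of the Y complex. Its levels were 212, 265 and 178 normalized CPM in XX, 524, 241 and 270 in XO, and 413, 271 and 218 in XY. The first XO and first XY pools were the highest, and all genotypes overlapped. The XX minus XO difference was -0.66 on the log2 scale (SE 0.40, adjusted p = 0.381), within the spread between pools.

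Sec13, which the outer ring shares with the COPII coat of vesicles leaving the endoplasmic reticulum, varied most. The gene (ENSMUSG00000030298.10) lies at chr6:113728062-113740743 on the minus strand. It had 4.63, 5.60 and 14.3 normalized CPM in XX, 2.59, 86.3 and 191 in XO, and 2.79, 5.21 and 17.2 in XY. XO2 and XO3 were above every other sample, while XO1 was the lowest of all 9, with 5 UMIs. The highest sample was 73.9-fold above the lowest. Sec13 was called lower in XX than in XO oocytes (log2 difference -3.49, SE 1.18, adjusted p = 0.209) and in XY compared with XO (-3.44, SE 1.17, adjusted p = 0.485). The first call was lost without XX1 (-3.10), XX2 (-3.29) or XO3 (-2.42), and the second without XO3 (-2.37), XY1 (-3.05) or XY2 (-3.12).

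Nup160, a large scaffold subunit of the same Y complex at chr2:90677215-90736328 (ENSMUSG00000051329.13, plus strand), was steadier. Its levels were 28.9, 27.0 and 25.6 normalized CPM in XX, 38.3, 51.2 and 42.9 in XO, and 33.5, 29.3 and 38.9 in XY. In normalized CPM all XX pools lay below all XO and all XY pools. XO1 was with the other XO pools on the upper side. This separation depends on the scaling, and UMIs before scaling overlapped (77 to 84 in XX, 74 to 99 in XO). The XX minus XO difference was -0.70 (SE 0.25, adjusted p = 0.221) and called, though not without XX1, XX2, XX3, XO2, XY2 or XY3 (-0.70 to -0.58), and the XX minus XY difference was -0.32 (SE 0.25, adjusted p = 1.00). With TMM factors of the genes XX minus XO was -0.34, and with spike-in totals 0.12, neither called. The other outer ring genes, Nup43, Nup133, Seh1l, Nup107 and Nup85, were not called in any comparison. Nup85 had the widest range among them, from 1.55 normalized CPM in XO1 to 59.8 in XO3.

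Nup35, an inner ring protein that binds membrane, was the highest of its group and the third highest of the 29. It (ENSMUSG00000026999.14) lies at chr2:80617236-80658906 on the plus strand and shares exon sequence there with Dusp19, so its counts are uncertain to that extent. It had 167, 149 and 204 normalized CPM in XX, 149, 514 and 701 in XO, and 144, 184 and 261 in XY. XO2 and XO3 were apart from all other pools, and XO1 was at the level of XX and XY oocytes. Nup35 was called lower in XX than in XO (-1.39, SE 0.52, adjusted p = 0.229) and lower in XY than in XO (-1.21, SE 0.51, adjusted p = 0.498). The first call was lost without any one XX pool, XO2 or XO3 (-1.51 to -0.93), and the second without any one pool other than XO1 (-1.38 to -0.76). The other inner ring genes, Nup93, Nup155, Nup205 and Nup188, had XX minus XO differences from -1.48 (Nup188) to -0.19 (Nup155), none called.

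Nupl1 encodes an FG-repeat protein of the central channel, where it works with the products of Nup54 and Nup62. Its first entry (ENSMUSG00000063895.7) lies at chr14:60184612-60251431 on the minus strand and overlaps exons of Atp8a2 and other entries. Levels were 38.8, 31.5 and 37.5 normalized CPM in XX, 60.1, 60.5 and 67.2 in XO, and 43.7, 38.1 and 49.2 in XY. In normalized CPM all 3 XO pools, XO1 included, were above all XX and all XY pools. This separation depends on the scaling, and UMIs before scaling overlapped (90 to 123 in XX, 116 to 119 in XO, 94 to 163 in XY). The XX minus XO difference was -0.80 (SE 0.24, adjusted p = 0.203) and called, with the lowest p of the 28 genes tested. With TMM factors of the genes it was -0.44, and with spike-in totals 0.12, neither called. XY minus XO was -0.52 (SE 0.24, adjusted p = 0.506) and not called. Nup62 was the only gene tested with a positive XX minus XO estimate (0.16, SE 0.33, adjusted p = 0.806).

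Nup210, a glycoprotein that spans the pore membrane, was the most abundant gene of its group. It had 72.7, 57.1 and 113 normalized CPM in XX, 32.1, 283 and 387 in XO, and 35.8, 97.7 and 200.4 in XY. XO1 and XY1 were the lowest of the 9 samples and XO2 and XO3 the highest, so that XO pools stood on both sides of all XX pools. Neither XX minus XO (-1.53, SE 0.83, adjusted p = 0.336) nor XY minus XO (-1.07, SE 0.82, adjusted p = 0.634) passed the threshold. Pom121, another membrane-anchored nucleoporin, was among the 3 lowest genes, with 2.85, 1.05 and 1.83 normalized CPM in XX, 1.04, 9.82 and 11.9 in XO, and 1.39, 0.977 and 5.74 in XY. Its 2 to 21 UMIs per sample leave large counting error, and its XX minus XO difference of -1.96 (SE 0.88, adjusted p = 0.277) was not called.

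On the cytoplasmic face the highest gene was Nup214, an FG-repeat protein that docks exported cargo. Its levels were 186, 186 and 174 normalized CPM in XX, 108, 247 and 364 in XO, and 187.3, 187.5 and 235 in XY. XX pools lay close together and all XY pools were above them by a small margin, while XO pools lay on both sides. The fitted differences were -0.40 (SE 0.41, adjusted p = 0.598) for XX minus XO and -0.16 (SE 0.41, adjusted p = 1.00) for XX minus XY. Rae1, an mRNA export factor that binds the Nup98 protein, had 7.12, 5.25 and 7.31 normalized CPM in XX, 2.59, 10.3 and 15.2 in XO, and 4.18, 3.58 and 8.45 in XY, and all genotypes overlapped. Nupl2, with 2.49, 1.40 and 3.96 in XX, 1.04, 2.58 and 2.82 in XO, and 1.86, 3.91 and 2.72 in XY, had 2 to 13 UMIs per sample and was left out of the tests by the filter on low counts.

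The nuclear basket was led by Tpr, the coiled-coil protein that forms the filaments of the basket. It had 111, 107 and 82.6 normalized CPM in XX, 246, 69.8 and 77.3 in XO, and 161, 97.0 and 83.9 in XY. XO1 and XY1 were the highest samples and XO2 and XO3 the lowest, the reverse of Sec13 and Nup210. The XX minus XO difference was -0.39 (SE 0.50, adjusted p = 0.679), in which XO1 alone carried the higher XO mean. Nup153, chosen here after its values were seen, was lower in every XX pool (41.3 to 50.0 normalized CPM) than in every XO pool (59.0 to 66.2), but its difference of -0.44 (SE 0.24, adjusted p = 0.335) was not called.

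The basket accordingly took different shares of nuclear pore UMIs. It took 11.3, 11.4 and 9.14% in XX, 18.2, 5.89 and 4.86% in XO, and 14.5, 9.56 and 8.03% in XY. XO1 had the highest share and XO2 and XO3 the lowest of the 9 pools. The pore membrane group went the other way, with 8.29, 6.27 and 10.4% in XX, 3.76, 13.3 and 14.2% in XO, and 5.03, 8.82 and 13.1% in XY. Single genes made up most of these shares, with Tpr at 14.1% in XO1 and Nup210 at 10.7% in XO3. The outer ring kept 34.1 to 39.8% in every pool, but its genes moved in opposite directions. Nup37 took 30.0% in XO1 and 7.47% in XO3, and Sec13 took 0.148% and 5.30%.

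**Figure D2:**
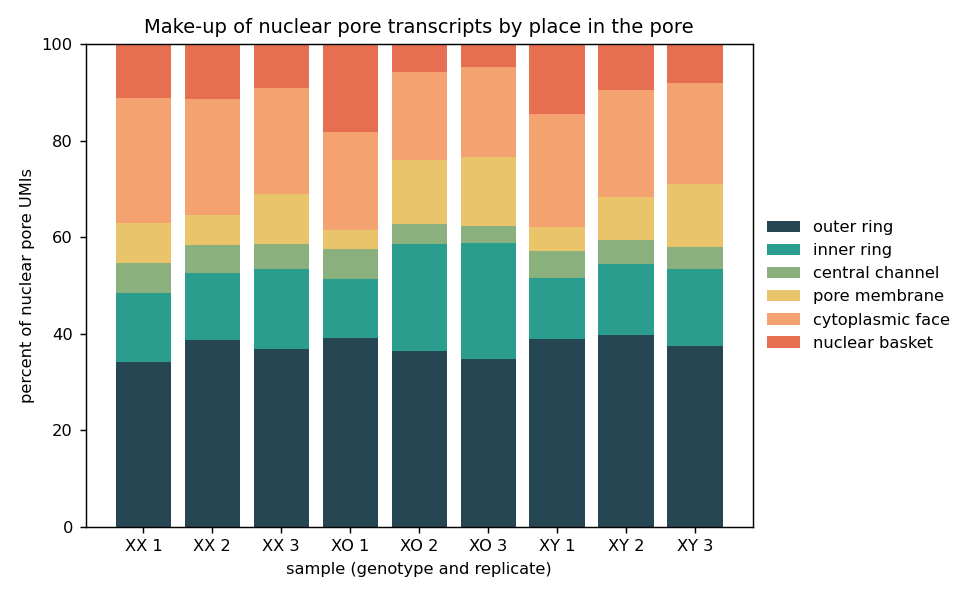
Share of nuclear pore UMIs (percent, stacked bars) taken by each of the 6 places in the pore, for each of the 9 pools. The basket took 18.2% in XO1 and 14.5% in XY1 against 4.86% in XO3, and the pore membrane group took 3.76% in XO1 against 14.2% in XO3.

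Whether oocytes with a single X chromosome differed from XX oocytes was tested with edgeR's quasi-likelihood test on all genes. A gene was called at an unadjusted p under 0.05. The study used the same threshold, but in limma fits with surrogate variables as covariates, which the fit here did not have. The filter on low counts passed 28 of the 29 genes. Against XO, 4 of the 28 were lower in XX (Nupl1, Sec13, Nup160 and Nup35) and 0 were higher, while 16.7% of all 10993 tested genes were called lower in XX and 1.4% higher. Most calls over all genes were thus lower in XX. The paper, by contrast, reported many autosomal genes at lower levels in XO than in XX or XY oocytes. The count of 4 (14.3%) was near the share of all genes called lower in XX. None of them had an adjusted p under 0.05, nor did any tested gene in this comparison (0%). The estimate was negative in 27 of the 28 genes (96.4%, all genes 80.3%), and the median was -0.62 against -0.46 over all tested genes. By place, the median XX minus XO estimate was -0.84 in the outer ring, -1.23 in the inner ring, -1.09 in the pore membrane, -0.43 on the cytoplasmic face, -0.39 in the basket and -0.19 in the central channel. All XX pools were below all XO pools in 3 genes (Nup153, Nupl1 and Nup160; all tested genes 13.6%) and above them in 0.

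**Figure D3:**
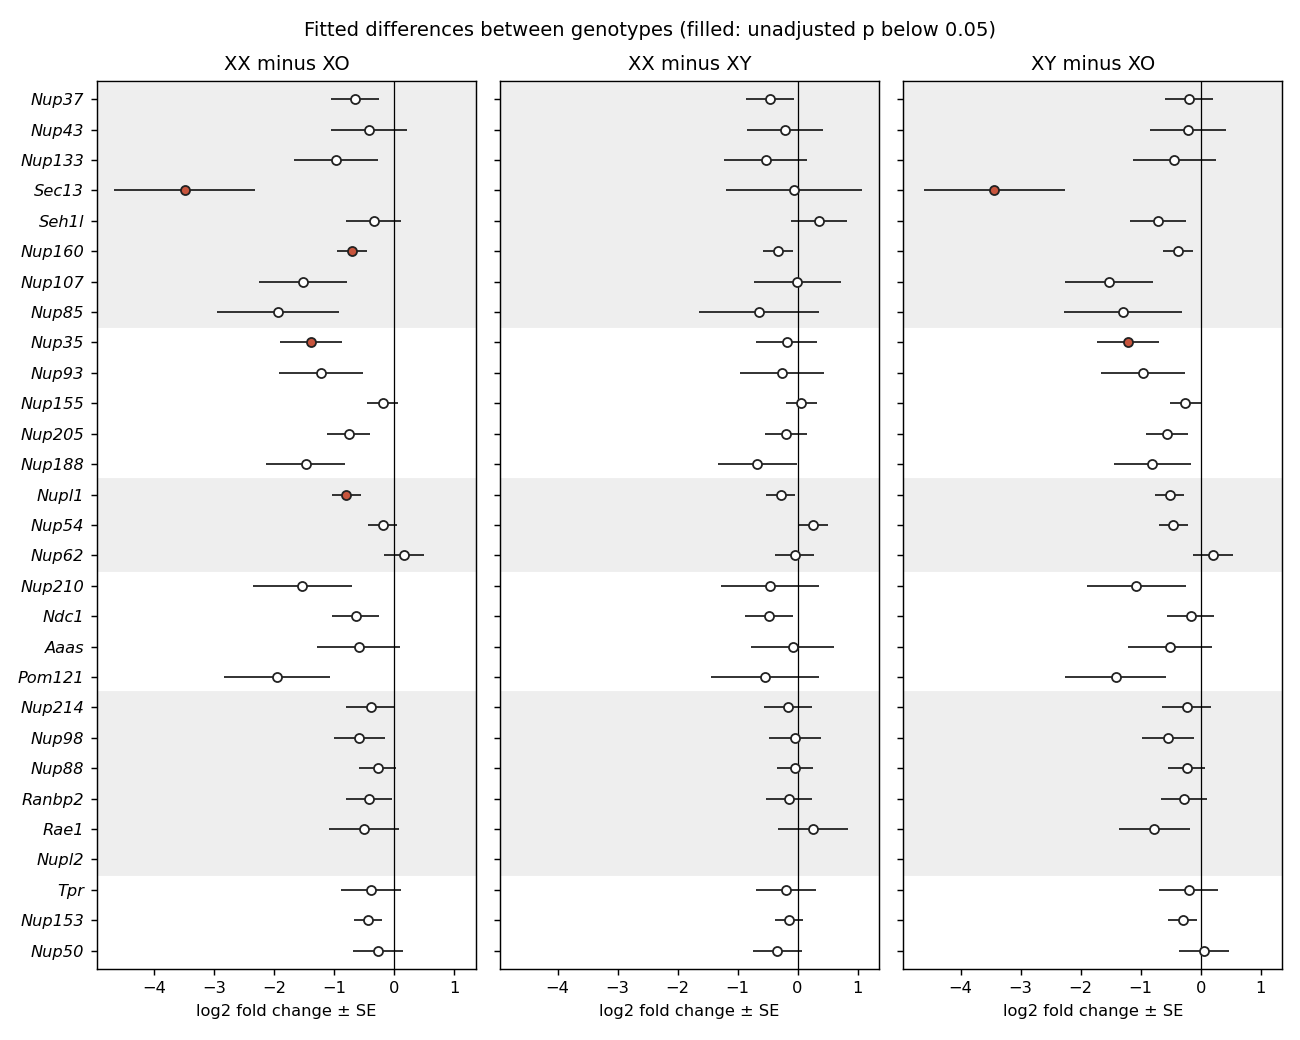
Fitted log2 fold change (point) with its SE (bar) for the 28 tested genes in the 3 comparisons, ordered by place in the pore, with filled points at an unadjusted p under 0.05. In the XX minus XO panel 27 of 28 points are below 0 and 4 are filled, in the XX minus XY panel none is filled, and in the XY minus XO panel Sec13 and Nup35 are filled.

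Between XX and XY oocytes 0 of the 28 genes were called by edgeR, nor by DESeq2, while 5.8% of all tested genes were called by edgeR and 5.24% by DESeq2. Adjusted p was under 0.05 in 0.0819% of all genes. Estimates ran from -0.67 in Nup188 (SE 0.66) to 0.36 in Seh1l (SE 0.46). Their median of -0.18 was close to that of all genes, -0.19. Nup214 and Nup160 were the 2 genes in which every XX pool was below every XY pool, against 11.7% of all tested genes.

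Between XY and XO oocytes, Sec13 and Nup35 were lower in XY and 0 genes were higher. Of all tested genes 8.24% were called lower in XY and 1.69% higher, with an adjusted p under 0.05 in 0.0364%, so 2 of 28 (7.14%) was again near the background. The median estimate was -0.48 against -0.30 over all genes. Samples of these genotypes with the same number deviated together over all genes, though weakly for number 2 (r = 0.27). The fit above did not use this pairing. In a fit with that number as a block, 4 genes were lower in XY (Sec13, Nup35, Nup107 and Nupl1, adjusted p = 0.227 to 0.285, background 14.1%). All XY pools were below all XO pools in 3 genes, Nup153, Nupl1 and Nup54 (all tested genes 6.34%). XO pools enter both XX minus XO and XY minus XO, so Sec13 and Nup35 in these comparisons rest on the same XO values.

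Direction and size depended on how the libraries were scaled. With TMM factors of the genes the median XX minus XO estimate of the 28 genes moved to -0.22 and that of all genes from -0.46 to -0.11, and Sec13 alone was called (-3.00; all genes called lower in XX 7.86%). With the spike-in totals, which keep the amount of RNA per spike-in, the median turned to 0.27 while that of all genes became 0.42, and 0 genes were called (all genes 3.12%). The median of the nuclear pore genes stayed below that of all genes under each of these scalings. A change of scaling shifts all genes nearly alike, so this order could hardly change and adds no evidence. In the deposited log2 matrix, from which the authors had removed surrogate batch effects, limma called 11 of the 28 higher in XX than in XO and 1 lower (all genes 36.1% and 7.4%), with a median of 0.32 (all genes 0.28). For XY minus XO that matrix gave 11 higher and 0 lower (all genes 37.5% and 5.53%), and for XX minus XY 3 higher (10.2%). Its p-values do not count the removed components. Sec13 and Nup35 were not called in it (XX minus XO -0.06 and 0.02, adjusted p = 0.811 and adjusted p = 0.928). The count of genes lower in XX than in XO also moved to 9 of 29 without a filter on low counts (all genes 13.5%) and to 7 with the replicate block (21.1%). For XY minus XO it moved to 7 without the filter (8.7%), 5 with 2 surrogate variables (13.0%), 1 with TMM on genes (5.69%) and 0 with spike-in totals (1.24%), and 2 surrogate variables gave 1 gene lower in XX than in XY (10.4%). Some of these settings gave an adjusted p under 0.05. Without the filter these were 6 of 29 genes for XX minus XO (Sec13, Nup85, Nup107, Nup210, Nup188 and Pom121; all genes 5.73%) and 2 for XY minus XO (Sec13 and Nup107; 2.79%). With 2 surrogate variables they were 3 of 28 for XY minus XO (Sec13, Nup35 and Nup107; 6.89%), and in the batch-regressed matrix 9 for XX minus XO (32.2%) and 8 for XY minus XO (30.8%).

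Replicate 1 of XO oocytes stood apart from the other XO pools. In 17 of the 28 genes XO1 was at least 2-fold below both XO2 and XO3, compared with 33.6% of all tested genes, and in 2 genes, Tpr and Ranbp2, it was at least 2-fold above both (14.6%). The log2 difference of XO1 from the mean of XO2 and XO3 reached -5.17 in Sec13, -4.29 in Nup85 and -3.33 in Nup210, and 1.73 in Tpr, 1.25 in Ranbp2, which encodes the large FG-repeat protein of the cytoplasmic filaments, and 1.04 in Nup37. The median was -1.42, against -0.34 over all tested genes. XY1 also differed from XY2 and XY3, with a median of -0.43 (all genes 0.01). Over the 28 genes the XO1 and XY1 differences had a Spearman rho of 0.93, and 0.82 over 10977 tested genes with a transcript sequence, given as a description since the genes share the libraries and their depth. In XX1 the median was -0.05.

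Both differences were lower in genes with more GC in the transcript. Over the 28 genes rho was -0.66 for XO1 and -0.58 for XY1, and over 10977 genes -0.42 and -0.37, all within the same libraries. For XX1 rho was -0.04 over the 28. Tpr and Ranbp2, both higher in XO1, have transcripts with 45.5 and 40.6% GC, and Sec13 and Nup210, both lower, 52.3 and 55.0%. Other genes went against this order, among them Seh1l, Nup35 and Nup43, which were lower in XO1 (-1.87, -2.01 and -2.44) with transcripts of 42.0, 45.1 and 46.2% GC. The part of GC content, of the library or of the oocytes in the pool in these differences was not tested.

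**Figure D4:**
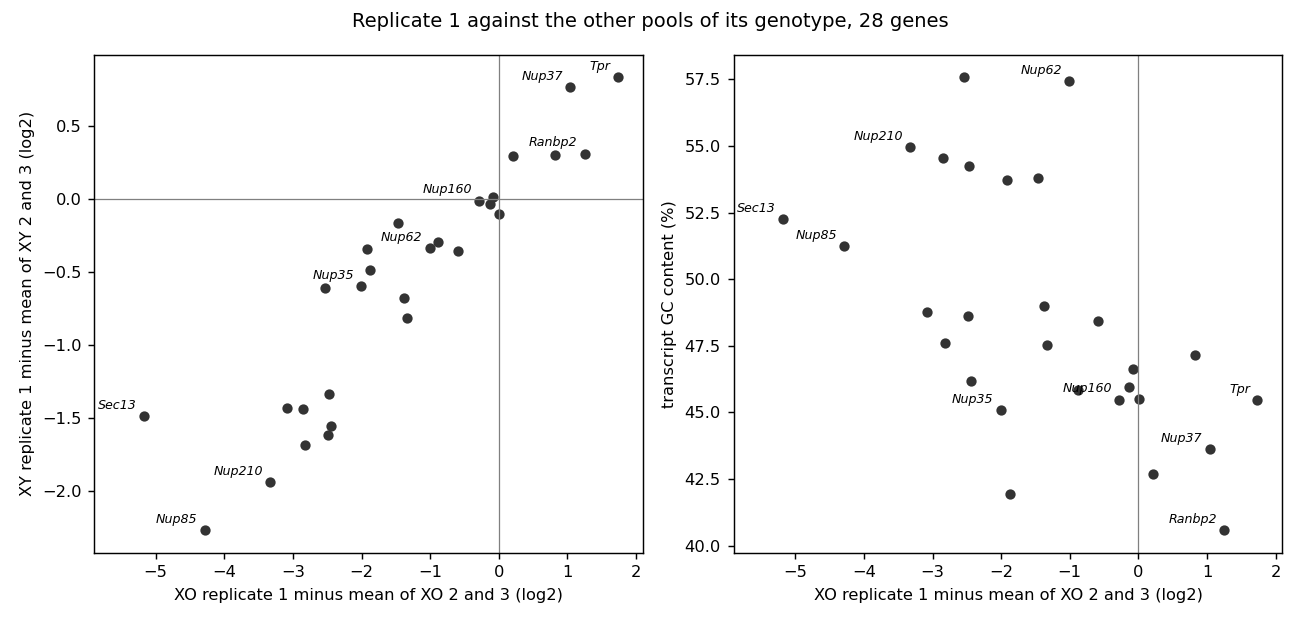
Log2 difference of XO replicate 1 from the mean of XO replicates 2 and 3 for the 28 genes, against the same difference for XY replicate 1 (left) and against transcript GC content in percent (right). Sec13, Nup85 and Nup210 are low in both first replicates and Tpr, Ranbp2 and Nup37 high in both, with a Spearman rho of 0.93 on the left and -0.66 on the right.

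XO2 and XO3 were both above the other 7 samples in 19 of the 28 genes, compared with 31.9% of all tested genes. Without XO1, 17 of 29 tested genes were lower in XX than in XO (58.6%, background 31.9%) and 0 higher, and 9 of them had an adjusted p under 0.05 (background 22.7%): Sec13, Nup35, Nup188, Nup107, Nup85, Pom121, Nup210, Nup133 and Nup93. The largest of these was Sec13 (-4.04, SE 0.66, adjusted p = 0.00367). XO1 was singled out by its low values in most of these same genes, so leaving it out was bound to raise their XO means. The counts without XO1 are therefore no separate evidence of a difference between genotypes. Nupl1 and Nup160 had similar estimates with and without XO1 (-0.78 and -0.74 without it). Against XY, 11 of 29 were lower in XY than in XO without XO1 (background 24.2%), 4 of them with an adjusted p under 0.05 (Sec13, Nup35, Nup107 and Seh1l; background 10.5%). The shares of all genes moved widely too when another pool was left out. Lower in XX than in XO were 1 gene without XX1 (all genes 5.98%), 1 without XX2 (7.82%), 3 without XX3 (9.79%), 2 without XO2 (12.5%), 2 without XO3 (7.95%), 5 without XY1 (16.6%), 3 without XY2 (11.5%) and 4 without XY3 (12.3%). Lower in XY than in XO was 1 gene each without XX1 (4.43%), XX2 (6.96%), XX3 (4.84%) and XO2 (5.61%), 0 without XO3 (2.35%), XY1 (4.58%) and XY2 (1.65%), and 2 without XY3 (8.05%).

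Other genes of nuclear transport and the nuclear envelope were counted from lists by function. Their counts are read against the 16.7% of all tested genes lower in XX than in XO and the 8.24% lower in XY than in XO. Of 14 tested importins, the carriers of proteins into the nucleus, 4 were lower in XX than in XO and 3 lower in XY than in XO. Those with the lowest p were Kpna7, the importin alpha typical of oocytes and early embryos (XX minus XO -1.18, SE 0.32, adjusted p = 0.203), and Kpna1, another importin alpha (-1.82, SE 0.63, adjusted p = 0.216). Both were also called lower in XY than in XO (-1.47 and -2.01, adjusted p = 0.485 for both), where their p was lowest. Of 14 tested genes of mRNA export, 4 were lower in XX than in XO and 3 lower in XY than in XO. The lowest p were those of Thoc1 (XX minus XO -1.08, SE 0.32) and Ddx39b (-4.98, SE 1.59), subunits of the TREX complex (adjusted p = 0.203 for both), of which Ddx39b was also called lower in XY than in XO and Thoc1 was not. Ddx39b was at 0 UMIs in XX1, XO1 and XY1 and at 22.7 and 64.9 normalized CPM in XO2 and XO3, so its estimate is uncertain. Of 11 tested genes of the lamina and envelope, 2 were lower in XX than in XO and 2 lower in XY than in XO. The lowest p were those of Tor1aip1, a torsin-binding protein of the inner membrane (XX minus XO -1.19, SE 0.45, adjusted p = 0.231), which was not called for XY minus XO, and Lbr, the lamin B receptor (-0.62, SE 0.25, adjusted p = 0.248), which was. None of the 7 exportins, the 4 tested genes of the Ran cycle or the 4 tested pore genes outside the naming rule was called. No gene of these transport and envelope lists was called between XX and XY or higher in XX or XY than in XO.

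The pools were oocytes by their markers. Summed normalized CPM of 13 oocyte markers was 27481 to 30191 in XX, 18483 to 59145 in XO and 20078 to 29578 in XY. All 13 had UMIs in every pool, the most abundant, Zp2, at 9501 or more. In XO1 some were low, with Figla at 1 UMI, Zp3 at 24, Zp1 at 27 and Zar1 at 38. Oosp1 went the other way, with 17648 UMIs in XO1, its highest pool, against 4824 in XO2 and 4420 in XO3. By the summed markers XO1 and XY1 were the lowest pools and XO2 and XO3 the highest. Of the 13 markers, 5 were lower in XX than in XO (all genes 16.7%) and 5 lower in XY than in XO (8.24%). Granulosa markers summed to 49.4 to 70.1 in XX, 56.4 to 69.4 in XO and 59.9 to 97.2 in XY, with 10 of 12 listed genes found. Nr5a2 (41 to 114 UMIs), Cyp19a1 (7 to 147), Kitl (11 to 63), Gata4 (1 to 17) and Inhba (2 to 7) were in every pool. Amhr2, Inha, Fst and Wt1 were at 0 UMIs in most pools. Kitl, the ligand of the oocyte receptor Kit, was the one granulosa marker called, higher in XX than in XO (1.09, SE 0.31, adjusted p = 0.203). Theca and stroma markers summed to 2.13 to 8.55 over all pools, and of the blood markers only Cd68 was found, with 3 UMIs in XO3. The part of these levels in the differences between nuclear pore genes was not tested.

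**Figure D5:**
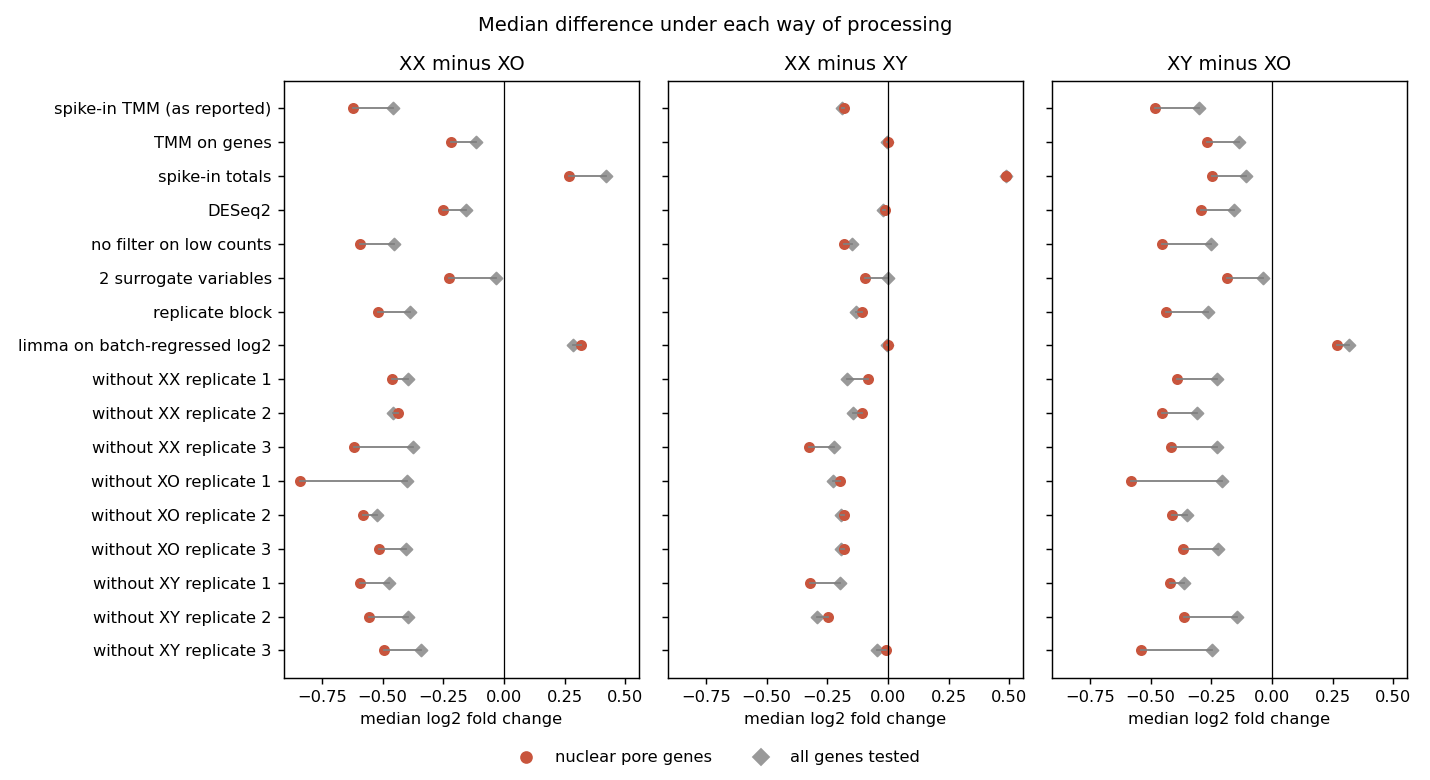
Median log2 fold change of the nuclear pore genes (circles) and of all tested genes (diamonds) in the 3 comparisons, under the reported scaling (top) and each alternative. For XX minus XO the median of the nuclear pore genes was -0.62 as reported, 0.27 with spike-in totals and 0.32 in the batch-regressed log2 matrix, and the 2 medians moved together.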

How the data were processed

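Reads were mapped by the authors to GRCm38 and Gencode transcripts (Hisat2, paired-end, by strand), and UMI counts per gene from reads in 5′ exons were deposited for 9 samples, without pooling. They also deposited a signal they call normalized CPM, which equals the counts over an effective library size (UMIs on genes multiplied by a TMM factor computed on ERCC), and log2 values from which the authors had regressed out surrogate batch effects. The versions of their tools are not given in the sources used here. The XO column without a number was taken as XO1, after its title, replicate 1. Its sample description starts with XO_2, while those of XO2 and XO3 start with XO-2 and XO-3. The paper names XX1, XO2 and XY1 as less like the other pools of their genotype. Whether its XO2 is the pool called XO1 here is not known, so the numbering of the XO pools is uncertain.

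All 28051 genes with coordinates entered edgeR 4.0.16 (quasi-likelihood test, filterByExpr, 1 mean per genotype, spike-in TMM factors, two-sided); 10993 were tested, with Benjamini-Hochberg adjustment over them. limma 3.58.1, DESeq2 1.42.0 and sva 3.50.0 served for alternatives. Scripts were tested on simulated data. Spike-ins were 0.204 to 0.862% of UMIs, which limits the precision of the factors. Same-numbered XO and XY samples deviated together over all tested genes, though weakly for number 2 (r = 0.82, 0.27 and 0.77), so the numbers were taken as pairing them. XX pools were not taken as paired with XO (0.45, -0.43 and 0.66) or XY (0.42, -0.06 and 0.71). The fit with the replicate block still used the numbers of all 9 samples. Its XX comparisons thus rest on a pairing that was not taken for XX. Members and gene lists were chosen with earlier results of these data known. Values by sample are given for genes called in any comparison, the highest gene of each place in the pore and the 3 lowest, and per further list at most the 2 genes with the lowest p are named. Other genes named were chosen after their values were seen. Same-strand exon overlap, from Gencode vM21, affects Nup188, Nup214, Nup35, Nup62 and Nupl1.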

Additional observations from a re-analysis of the deposited data

How the results depend on the processing

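The counts of nuclear pore genes called lower in XX than in XO, 4 as reported, were 1 with TMM factors of the genes, 0 with spike-in totals, 9 without a filter on low counts, 7 with the replicate block and 1 in the batch-regressed log2 matrix, which gave 11 higher. The count lower in XY than in XO, 2 as reported, was 1 with TMM, 0 with spike-in totals, 7 without a filter, 5 with 2 surrogate variables, 4 with the replicate block and 0 in the batch-regressed matrix, which gave 11 higher. XX against XY gave 1 lower with 2 surrogate variables (Nup133) and 3 higher in the batch-regressed matrix. Median differences moved to 0.27 (XX minus XO) and 0.49 (XX minus XY) with spike-in totals, and to 0.32 (XX minus XO) and 0.27 (XY minus XO) in the batch-regressed matrix. With spike-in totals XX minus XO turned for Nup160 (0.12) and Nupl1 (0.12), and in the batch-regressed matrix the differences of Nup35 turned (0.019 for XX minus XO, 0.041 for XY minus XO). The causes were not tested.

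Leaving out 1 pool at a time gave 1 to 17 genes lower in XX than in XO, 0 to 11 lower in XY than in XO and 0 between XX and XY, while all genes gave 5.98 to 31.9%, 1.65 to 24.2% and, in either direction, 3.3 to 11% called, with medians of -0.84 to -0.44, -0.58 to -0.36 and -0.33 to -0.01. The highest counts came without XO1, the lowest XO pool in most of these genes. Sec13 ranged from -4.18 to -2.42 (XX minus XO) and from -4.42 to -2.37 (XY minus XO), Nup35 from -1.77 to -0.93 and from -1.55 to -0.76, Nup160 from -0.74 to -0.58 and Nupl1, which kept its call each time, from -0.82 to -0.67. With the replicate block, which also pairs the XX pools by number, Sec13, Nup35, Nup160 and Nupl1 stayed lower in XX than in XO and called. Their XX minus XO calls were lost in other settings. All of these were lost with spike-in totals and in the batch-regressed matrix, and all but Sec13 with TMM. Nup160 and Nupl1 were also not called without the filter or with 2 surrogate variables, nor Nup160 with DESeq2. Of the 9 fits without 1 pool, Nup160 lost its call in 6, Nup35 in 5 and Sec13 in 3. For XY minus XO, Nup35 lost its call in 8 and Sec13 in 3, both also with spike-in totals and in the batch-regressed matrix, and Nup35 with TMM. Low counts, such as 2 to 21 UMIs per sample in Pom121, and 3 pools per genotype limit the precision.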
